A study of Mus musculus with 8 samples.

Results

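Cpne7, Kcnj8, Kirrel3 and Lancl3 are 4 genes among the 27670 gene or transcript names on the array. They were selected on their array signal, because in CD44lo and CD44hi CD4+ T cells it lay above that in both naive and Treg cells. All array probes naming 1 of the 4 genes were taken, which gave 6 probes of 41174. The measurements are from sorted CD4+ T cells of Ox40-cre/ROSA-YFP mice, male, C57BL/6 and 15 weeks old, with spleen and lymph nodes pooled. The 4 groups, each measured on 2 single-colour Agilent arrays, were CD44hi, CD44lo, Treg (regulatory T cells) and naive. All 4 groups carry the same reporter, in which Cre recombinase driven by Ox40 (Tnfrsf4), a costimulatory receptor of activated T cells and regulatory T cells, switches on YFP. The labels name the groups without giving the sort gates or the YFP status, and number the samples 1 and 2 without saying whether they were separate animals. The p-values below therefore rest on differences between samples of a group that can be purely technical.

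CD44 is an adhesion receptor that CD4+ T cells carry at a high level after activation, whereas naive cells carry little of it. The 4 members belong to unrelated families. Cpne7 encodes a copine, a protein with tandem C2 domains that binds membrane phospholipids when calcium rises. Kcnj8 encodes Kir6.1, a pore subunit of the ATP-sensitive potassium channel, best known from vascular smooth muscle and pericytes, where it pairs with the sulfonylurea receptor Abcc9. Kirrel3 encodes an immunoglobulin-superfamily adhesion protein of the nephrin family, known from synapses and related to proteins of the kidney filter. Lancl3 encodes a protein related to bacterial lanthionine synthetase C, whose relative Lancl1 binds glutathione.

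The 6 probe sequences are shown because each value below is the signal of 1 of these oligonucleotides, and because the pairs for Kcnj8 and Kirrel3 read different stretches of their genes. They are printed 5′ to 3′ in lower case as the array files give them, with coordinates in mouse build mm7. The Cpne7 probe lies at chr8:121776730-121776789 (+), the Lancl3 probe at chrX:7700992-7701051 (+). The Kcnj8 probes lie at chr6:142653175-142653234 (-) for the brighter one and chr6:142652658-142652717 (-) for the second, so their starts are 517 bases apart. The Kirrel3 probes lie at chr9:34930121-34930180 (+) for the brighter one and chr9:34925121-34925180 (+) for the second, 5000 bases apart, and were designed on different cDNA records. Exon and UTR positions on this build were not used here.
Cpne7: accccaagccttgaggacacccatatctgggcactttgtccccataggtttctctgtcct
Kcnj8, brighter probe: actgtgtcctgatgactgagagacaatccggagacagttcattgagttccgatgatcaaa
Kcnj8, second probe: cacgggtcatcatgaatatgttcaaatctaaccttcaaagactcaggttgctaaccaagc
Kirrel3, brighter probe: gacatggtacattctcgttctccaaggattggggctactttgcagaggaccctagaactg
Kirrel3, second probe: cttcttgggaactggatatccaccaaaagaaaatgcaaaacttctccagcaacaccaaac
Lancl3: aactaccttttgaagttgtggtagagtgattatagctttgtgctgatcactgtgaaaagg

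Signals are given as the processed signal, the background-subtracted brightness of a spot in array units. Levels are the log2 of that signal minus the log2 of the array's 75th percentile, so that arrays can be set side by side. Naive array 2 was the dimmest, with a 75th percentile of 639.3 where the remaining 7 had 990.7 to 1336.8, and it also had the lowest share of probes well above background (59.2%, against up to 68.8%). Cd4 passed the test in neither comparison between groups used here. Foxp3 had signals of 7971 and 8547 in Treg, 1020.1 and 1113 in CD44hi, 1329 and 1902 in CD44lo, and 23.3 and 24.9 in naive, so that CD44hi and CD44lo also lay above naive. It was brightest in Treg (7.77 higher than in naive on the log2 scale, limma adjusted p = 2.5e-05) and Cd44 was higher in CD44hi than in CD44lo by 1.50 (adjusted p = 0.0054), with 2 arrays a group. Of 13 CD4 T cell and sort markers, 1 was called higher and 3 lower in CD44hi than in CD44lo (limma adjusted p under 0.05). In Treg against naive, 6 were called higher and 3 lower. Over all tested genes, 6.06% were called higher and 3.31% lower in CD44hi, and 11.6% higher and 10.3% lower in Treg.

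The 4 genes did not share 1 profile. Cpne7 and Lancl3 stepped down through all 4 groups, from CD44hi over CD44lo and Treg to naive. Kcnj8 was at like levels in CD44hi and CD44lo and near background in Treg and naive. Kirrel3 was measured mainly in CD44hi. In CD44lo it was well above background on 1 of 2 arrays with its brighter probe and on neither with its second probe, so that the label of a gene high in both groups was only partly borne out.

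**Figure D1:**
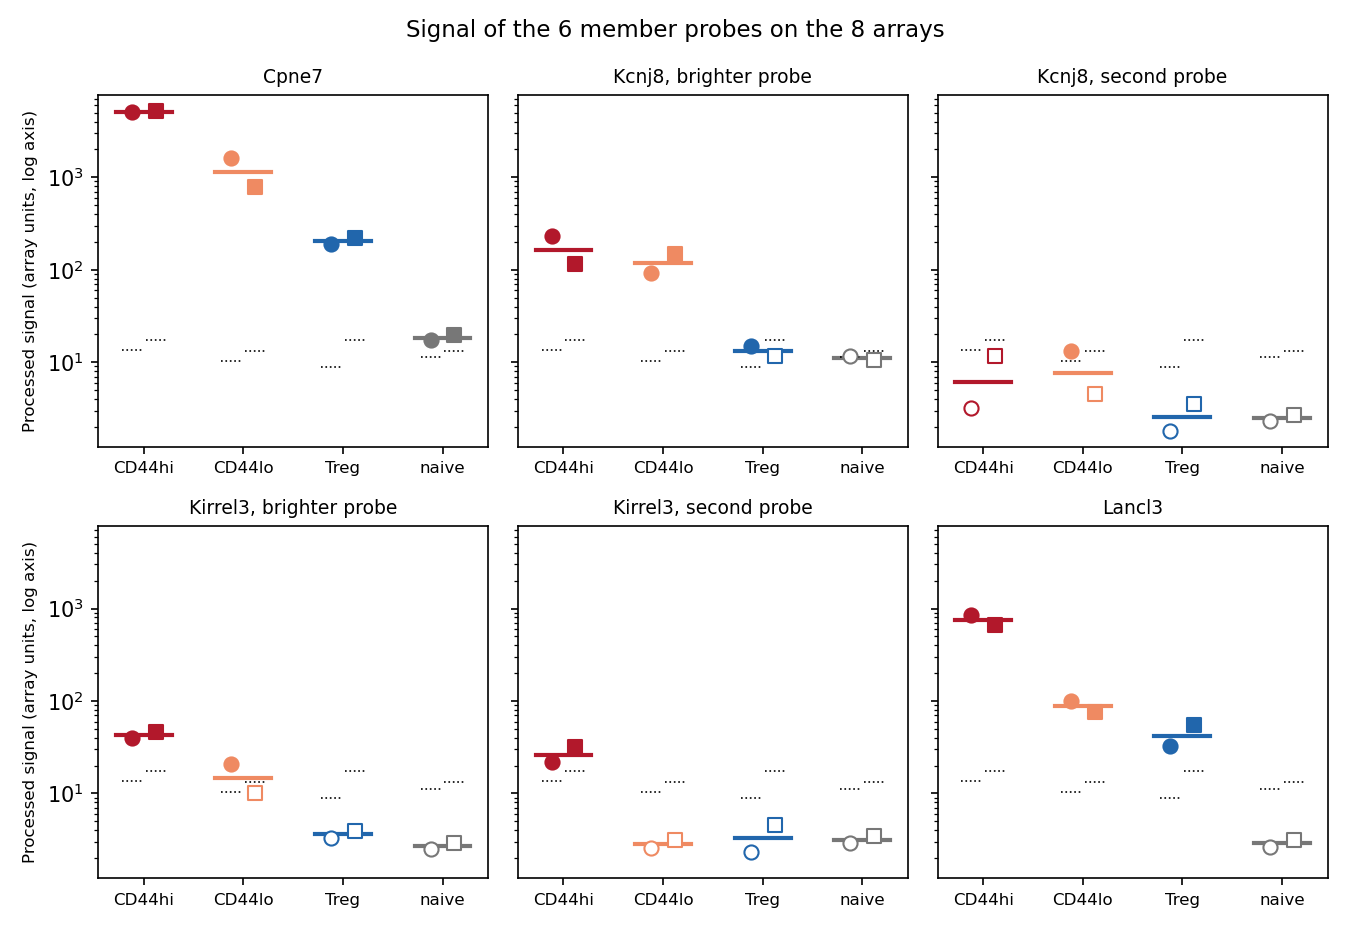
Processed signal (array units, log axis) of the 6 probes of Cpne7, Kcnj8, Kirrel3 and Lancl3 in CD44hi, CD44lo, Treg and naive cells, with circles for slide 1 and squares for slide 2. Filled symbols are well above background, open symbols are not, bars are group means on the log scale, and dotted lines mark the lowest signal well above background on each array. Cpne7 is filled on 8 of 8 arrays, while the second Kirrel3 probe is filled on the 2 CD44hi arrays only.

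Cpne7 had signals of 5059.5 and 5205 in CD44hi cells, 788 and 1618 in CD44lo cells, 192 and 221 in Treg cells, and 19.8 and 17.2 in naive cells. No group overlapped another, and all 8 arrays were well above background. Its level averaged 2.10 ± 0.05 in CD44hi, 0.10 ± 0.71 in CD44lo, -2.60 ± 0.003 in Treg and -5.43 ± 0.31 in naive (log2, SD, n = 2 each). The CD44lo arrays differed most from each other, CD44lo array 2 being the brighter.

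Lancl3 had signals of 857 and 663 in CD44hi cells, 76.9 and 100.6 in CD44lo cells, 32.7 and 54.6 in Treg cells, and 3.14 and 2.66 in naive cells. The order of the groups was that of Cpne7, again without overlap, but both naive arrays were not well above background. The level averaged -0.67 ± 0.24 in CD44hi, -3.58 ± 0.25 in CD44lo, -4.88 ± 0.38 in Treg and -8.11 ± 0.28 in naive (log2, SD, n = 2 each). CD44lo and Treg were its closest neighbours among groups that were measured.

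Kcnj8, on its brighter probe, had signals of 229 and 117 in CD44hi cells, 149 and 93.1 in CD44lo cells, 14.8 and 11.7 in Treg cells, and 10.6 and 11.6 in naive cells. The CD44hi and CD44lo arrays overlapped, as did Treg and naive once scaled, and the upper pair lay clear of the lower pair. Of the 4 arrays of Treg and naive, 1, a Treg array, was well above background. The level averaged -2.87 ± 0.67 in CD44hi, -3.16 ± 0.50 in CD44lo, -6.57 ± 0.38 in Treg and -6.17 ± 0.54 in naive (log2, SD, n = 2 each). Neither CD44hi and CD44lo nor Treg and naive differed beyond these SDs. The second Kcnj8 probe had signals of 3.22 and 11.7 in CD44hi, 4.53 and 13.2 in CD44lo, 1.82 and 3.53 in Treg, and 2.71 and 2.31 in naive, with 1 of 8 arrays, CD44lo array 2, well above background. The Kcnj8 pattern thus stood on a single probe.

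Kirrel3, on its brighter probe, had signals of 39.6 and 46.8 in CD44hi cells, 10.2 and 21.1 in CD44lo cells, 3.33 and 3.91 in Treg cells, and 2.91 and 2.50 in naive cells. Well above background were both CD44hi arrays and CD44lo array 2. The level averaged -4.80 ± 0.19 in CD44hi, -6.17 ± 0.72 in CD44lo, -8.44 ± 0.02 in Treg and -8.21 ± 0.29 in naive (log2, SD, n = 2 each), and the Treg and naive means lie below what the arrays measure. The second Kirrel3 probe had signals of 21.7 and 32.0 in CD44hi, 3.11 and 2.60 in CD44lo, 2.34 and 4.58 in Treg, and 3.47 and 2.90 in naive. On that probe CD44lo lay with Treg and naive, and CD44hi was at least 1.97-fold brighter than CD44lo. The 2 Kirrel3 probes therefore disagreed on CD44lo.

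The contrasts that chose the genes are given as a description, with no test. A bound marked "at least" sets the brighter group against the lowest measurable signal, because the other group was not well above background on either array. CD44hi was brighter than Treg by 25.9-fold for Cpne7, 18.6-fold for Lancl3, about 12.9-fold for Kcnj8 and at least 3.60-fold for Kirrel3. CD44lo was brighter than Treg by 6.48-fold for Cpne7, about 10.6-fold for Kcnj8 and 2.46-fold for Lancl3. The Kcnj8 folds use a Treg mean in which 1 of 2 arrays was well above background. For Kirrel3 in CD44lo no fold is given, since 1 CD44lo array and 0 Treg arrays measured it. Kcnj8 in CD44lo thus stood almost as far above Treg as Kcnj8 in CD44hi did, whereas for Lancl3 most of the distance lay between CD44hi and CD44lo.

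Against naive cells, CD44hi was brighter by 185-fold for Cpne7, at least 41.2-fold for Lancl3, at least 8.79-fold for Kcnj8 and at least 2.35-fold for Kirrel3. CD44lo was brighter than naive by 46.2-fold for Cpne7, at least 7.20-fold for Kcnj8 and at least 5.45-fold for Lancl3. The Cpne7 folds rest on naive signals of 19.8 and 17.2, close to the lowest measurable signals of 13.15 and 11.26. In the authors' deposited table Cpne7 stood closer together, at 12.25 and 12.35 in CD44hi, 9.79 and 10.79 in CD44lo, and 6.33 and 6.42 in naive (log2). For Kirrel3 in CD44lo against naive the bound fell under 1 and no fold is given.

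The comparison of CD44hi with CD44lo was not used to choose the genes and was tested with limma over the 17996 genes that were well above background in both samples of at least 1 group. All 4 members passed this filter, Kirrel3 through CD44hi alone. Of the tested genes, 1090 were called higher in CD44hi (6.06%) and 596 lower (3.31%), at a Benjamini-Hochberg adjusted p under 0.05. Lancl3 and Cpne7, 2 of the 4 members, were called higher, and Kirrel3 and Kcnj8 were not called. Lancl3 was 2.92 ± 0.26 higher on the log2 scale (SE, n = 2 against 2; 7.55-fold, limma adjusted p = 0.00254). The difference was 2.91 on slide 1 and 2.92 on slide 2, each slide holding 1 array of each group.

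Cpne7 was 2.00 ± 0.33 higher in CD44hi than in CD44lo (log2, SE; 4.00-fold, limma adjusted p = 0.0143), with 1.46 on slide 1 and 2.54 on slide 2. The call was lost without CD44hi replicate 1 (limma adjusted p = 0.0503), without CD44hi replicate 2 (0.0672) and in a fit of the 2 groups alone (0.0683), at differences of 1.97 to 2.03, within a range of 0.00389 to 0.0683 over the 17 alternatives run. Kirrel3 differed by 1.37 ± 0.34 between CD44hi and CD44lo (log2, SE; limma adjusted p = 0.0544), with 0.73 on slide 1 and 2.00 on slide 2. Of the CD44lo arrays, 1 was not well above background for Kirrel3, so this difference rests partly on a signal that was not measurable. Kirrel3 also entered the test through CD44hi alone, so its p-value can lean towards a difference and nothing is read from it. The size of the Kirrel3 difference fell to 0.28 after normexp background correction and quantile normalization and to 0.36 in the authors' deposited table.

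Kcnj8 differed by 0.29 ± 0.43 between CD44hi and CD44lo (log2, SE; 95% interval -0.75 to 1.33, limma adjusted p = 0.757). Its sign was not the same on the slides, at 1.12 on slide 1 and -0.54 on slide 2. This difference was smaller than its standard error.

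Treg against naive was the other comparison not used in the choice. Of the tested genes, 2081 were called higher in Treg (11.6%) and 1860 lower (10.3%), so that 52.8% of calls were higher. That share was 42.5% after normexp and quantile normalization, and the median difference of all tested genes was -0.20, against -0.11 under that setting. Cpne7 and Lancl3 were called higher in Treg, and Kcnj8 and Kirrel3 were not called. In fits of 2 arrays a group, Cpne7 was 2.83 ± 0.33 higher in Treg than in naive (log2, SE; 7.12-fold, limma adjusted p = 0.00151), with 2.61 on slide 1 and 3.05 on slide 2. The Cpne7 difference was 3.05 without naive replicate 2, the dim array, and 1.37 after normexp and quantile normalization, called in both.

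Lancl3 was at least 2.22-fold brighter in Treg than in naive, where it was not well above background. Its difference in the signals as read was 3.22 ± 0.26 (log2, SE, n = 2 against 2, limma adjusted p = 3.5e-04). That p-value does not test the bound. The difference as read was 2.76 on slide 1 and 3.69 on slide 2, and 3.42 without naive replicate 2. It was 0.62 after normexp and quantile normalization and 0.90 in the authors' deposited table, still called in both. Kcnj8 differed by -0.40 ± 0.43 between Treg and naive (log2, SE; 95% interval -1.44 to 0.64, limma adjusted p = 0.513), and 1 of these 4 arrays was well above background. Kirrel3 was not well above background on any of them, and no fold is given.

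**Figure D2:**
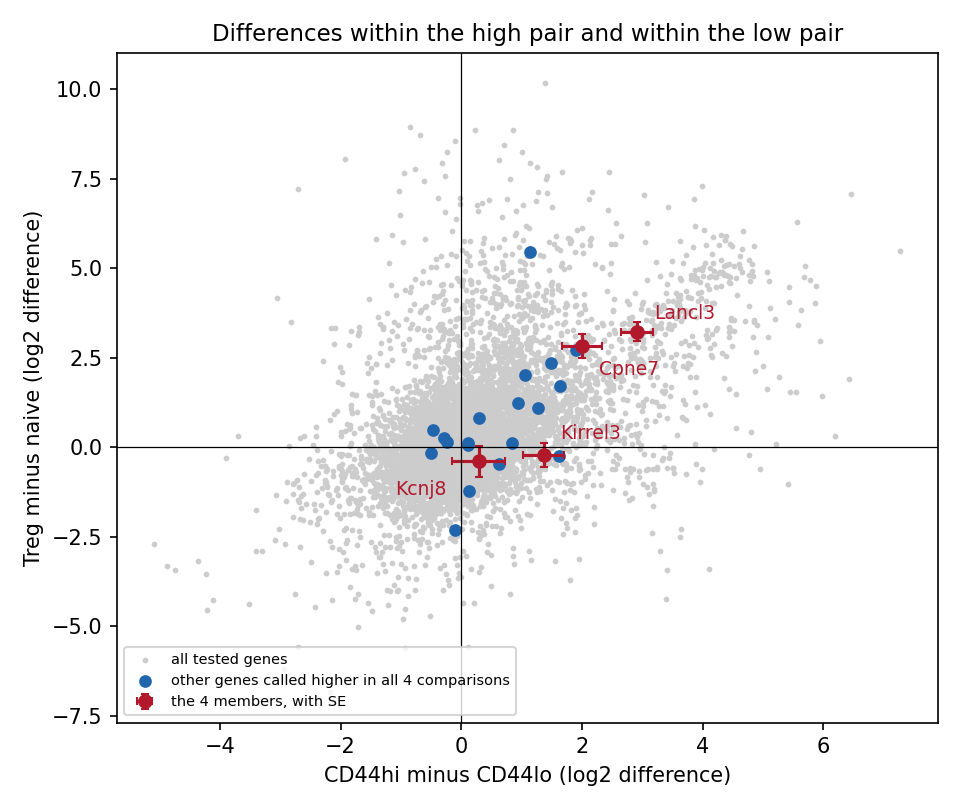
Log2 difference of CD44hi minus CD44lo (horizontal) and of Treg minus naive (vertical) for the 17996 tested genes (grey), for 19 further genes called higher in both CD44hi and CD44lo than in both Treg and naive (blue), and for Cpne7, Kcnj8, Kirrel3 and Lancl3 (red, with standard errors of the limma fit). Lancl3 and Cpne7 lie to the upper right, at 2.92 and 2.00 across, while Kcnj8 lies at 0.29 and -0.40, within 1 standard error of 0 on both axes.

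The members were also placed among all genes by the pattern they were chosen for, as a description. The gap of a gene is the lower of its CD44hi and CD44lo means minus the higher of its Treg and naive means. It was 3.00 for Kcnj8 (rank 5 of 17996), 2.70 for Cpne7 (rank 7), 2.04 for Kirrel3 (rank 16) and 1.30 for Lancl3 (rank 37), against a median of -0.39 over all tested genes, of which 1837 (10.2%) had a gap above 0. For Kcnj8 and Kirrel3 the gap is the difference between CD44lo and naive, where naive was not well above background, so its size and rank are those of the signals as read. For Kirrel3 no distance between these groups was measurable. The second Kirrel3 probe had a gap of -0.56, between CD44lo and naive signals that were not well above background. The choice of the genes named no smallest gap. Called higher by limma in each of the 4 contrasts that chose the members were 23 genes (0.128%). The members are among these 23, which the choice itself made likely, and nothing is read from it. That count fell to 3 without Treg replicate 2 and reached 53 without naive replicate 1, so it rests on single arrays.

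The 10 genes with the largest gap were BC006942, Gzmk, Il4, S1pr5, Kcnj8, Sostdc1, Cpne7, Acod1, Rgs8 and Tgfb3. Gzmk encodes a granzyme, Il4 the type 2 helper cytokine, S1pr5 a sphingosine-1-phosphate receptor, Rgs8 a regulator of G protein signalling and Tgfb3 a transforming growth factor. Among the 19 of the 23 genes that are not members, 5 were called higher and 0 lower in CD44hi than in CD44lo. In Treg against naive, 5 of the 19 were called higher and 2 lower. Among all tested genes, 6.06% were called higher and 3.31% lower in CD44hi, and 11.6% higher and 10.3% lower in Treg. The 19 were themselves picked by calls between these groups on the same arrays, so nothing is read from their counts. The 2 lower in Treg were Ntrk3, a neurotrophin receptor, and Itga7, an integrin chain.

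Likeness was measured as the root-mean-square difference over the 8 arrays of log2 values, raised to the array's floor where lower and centred on the gene's mean. All of these values come from the same 8 arrays and are a description. Nearest to Cpne7 were Il21 (0.42), a cytokine of helper T cells, Sostdc1 (0.49), a secreted antagonist of BMP and Wnt signals, and Il4 (0.81). Il21 had signals of 1663 and 2782 in CD44hi, 326 and 701 in CD44lo, 109 and 192 in Treg, and 5.05 and 9.52 in naive. Sostdc1 had 3755 and 7774 in CD44hi, 402 and 1836 in CD44lo, 110.1 and 198 in Treg, and 3.56 and 3.03 in naive. Both stepped down in the order of Cpne7, and in both naive was not well above background.

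Among the 3 genes nearest to Kcnj8 were S1pr5 (0.44) and Tgfb3 (0.64). S1pr5 had signals of 99.5 and 59.3 in CD44hi, 121 and 56.7 in CD44lo, 6.18 and 10.9 in Treg, and 7.71 and 2.52 in naive. As with Kcnj8, its upper groups overlapped. Its Treg and naive arrays were all not well above background, whereas 1 Treg array was for Kcnj8. Nearest to Lancl3 were Vdr (0.46), the vitamin D receptor, the transcript 8030451A03Rik (0.47) and Il2 (0.48), the T cell growth factor. Il2 had signals of 387 and 319 in CD44hi, 36.2 and 41.9 in CD44lo, 23.1 and 32.9 in Treg, and 8.07 and 9.32 in naive, and it was called higher in CD44hi than in CD44lo by 2.99 (log2, limma adjusted p = 0.003). Vdr was called higher in the same comparison by 2.45 (log2, limma adjusted p = 0.0108).

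Nearest to Kirrel3 were Mcoln2 (0.10), a lysosomal cation channel, Fam187b (0.17) and Trp53inp2 (0.17), an autophagy protein. These small distances come with a Kirrel3 profile that is at the floor in Treg, naive and CD44lo array 1. Mcoln2 itself was well above background on all 8 arrays, at 487 and 514 in CD44hi, 158 and 242 in CD44lo, 110.1 and 182 in Treg, and 131 and 127 in naive. To the mean of the 4 members the nearest genes were Cebpd (0.41), Tgfb3, Speer6-ps1, Nebl, Klrb1c, Klrb1a, Fbn2, 8030451A03Rik, Vdr and Il2 (0.59). Klrb1c and Klrb1a encode lectin-like receptors known from NK cells, and Cebpd a transcription factor.

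**Figure D3:**
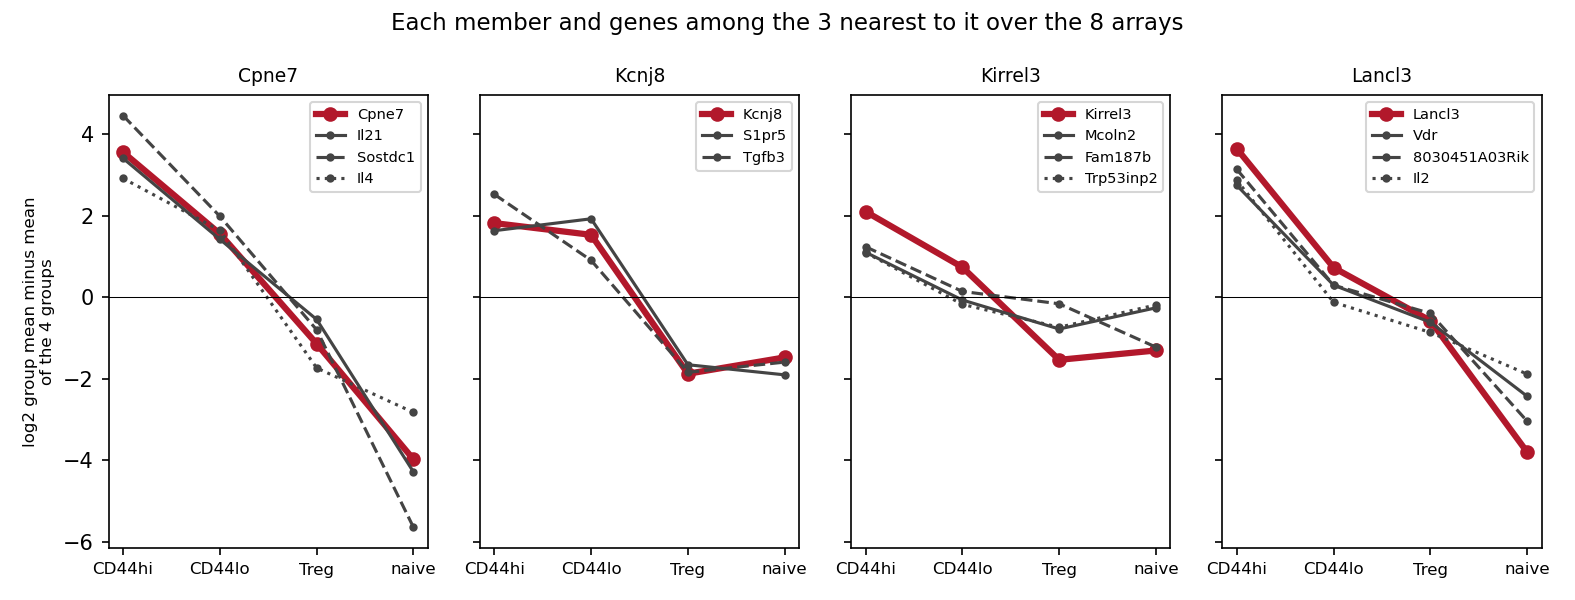
Group means (log2, measured values without a floor, minus the mean of the 4 groups) of Cpne7, Kcnj8, Kirrel3 and Lancl3 (red) and of genes among the 3 nearest to each over the 8 arrays (grey, line style by gene), for CD44hi, CD44lo, Treg and naive cells. Il21, Sostdc1 and Il4 descend with Cpne7, and S1pr5 is level within the upper pair as Kcnj8 is. On these values without a floor the Kirrel3 neighbours lie apart from it, below it in CD44hi and CD44lo and above it in Treg. Kirrel3 was not measurable in Treg or naive.

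Between the members, the smallest distances were 1.11 for Kcnj8 and Lancl3 and 1.14 for Cpne7 and Lancl3. The largest was 2.44, for Cpne7 and Kirrel3. These distances also grow with the size of the group differences, and Kirrel3 was at the floor in Treg, naive and CD44lo array 1. Each member had 3 other genes nearer to it than any of the other members.

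Relatives of each member in family and pathway were taken from 6 lists. None of the tested list genes was among the 23 genes called in all 4 contrasts by limma, which at 0.128% of all genes says little about lists of this size. A gap above 0 was seen in 4 of 13 C2-domain and granule genes, 3 of 7 potassium channels of T cells, 2 of 8 nephrin-family genes, 3 of 13 LanC-like and glutathione genes, 0 of 5 copines and 0 of 6 inward rectifiers, against 10.2% of all tested genes. The median difference of a list lay between -0.60 (inward rectifiers) and 0.54 (potassium channels of T cells) for CD44hi minus CD44lo, against -0.04 over all tested genes, and between -0.49 (inward rectifiers) and 0.28 (C2-domain and granule genes) for Treg minus naive, against -0.20 (log2). Of the other copines, 5 of 8 were tested. Cpne2 was higher in CD44hi than in CD44lo by 1.90 (log2, limma adjusted p = 0.00652), at 207 and 212 in CD44hi against 45.7 and 53.6 in CD44lo. Cpne5 was lower by 0.68 (adjusted p = 0.0307), and Cpne1 was lower in Treg than in naive by 0.87 (adjusted p = 0.0306). Cpne2 had 77.8 and 100.5 in Treg and 54.6 and 58.4 in naive, both above its CD44lo signal. It followed Cpne7 in the step between CD44hi and CD44lo and not in that between CD44lo and the lower groups.

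Of 13 tested genes of calcium-dependent C2 domains and granule release, 1 was called higher and 0 lower in CD44hi than in CD44lo by limma (3 and 0 at an unadjusted p under 0.05), near the 6.06% and 3.31% of all tested genes. The gene called was Sytl3, a synaptotagmin-like Rab27 effector, at 1233 and 1253 in CD44hi against 153 and 236 in CD44lo (2.53 higher, log2, limma adjusted p = 0.00568). In Treg against naive, 3 were called higher and 1 lower, against 11.6% and 10.3% of all tested genes. Stx11, a syntaxin needed for the release of cytotoxic granules, was higher in Treg by 4.20 (adjusted p = 4.7e-04), Syt11 by 1.46 and Sytl1 by 1.29, and Esyt1, a tether between membranes, was lower by 0.62 (adjusted p = 0.0295).

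Of the inward-rectifier channels and their partners, 15 of 16 were on the array and 6 could be tested. Abcc9, the usual partner of Kcnj8, was not well above background on any array, with signals of 1.90 to 7.44. Abcc8, the other sulfonylurea receptor, was called in neither comparison. It was well above background on 1 CD44hi, 2 CD44lo, 2 Treg and 1 naive array, at 13.8 and 41.9 in CD44hi and 17.5 and 15.9 in CD44lo. Kcnj11, which encodes the related pore Kir6.2, was well above background on 1 array, CD44hi array 2, at 78.0. So the channel's other pore and usual regulatory subunit were largely unmeasured where Kcnj8 was bright, whereas Abcc8 was measured, at low signal, on most of those arrays.

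Kcnj16, another inward rectifier, was lower in CD44hi than in CD44lo, at 27.1 and 30.3 against 219 and 119 (2.68 lower, log2, limma adjusted p = 0.0121). It was also lower in Treg, at 116 and 61.2, than in naive, at 253 and 182 (1.99 lower, adjusted p = 0.0186). Kcnj15 was higher in Treg than in naive by 1.09 (adjusted p = 0.0134). Among 7 tested potassium channels known from T cells, 1 was called higher in CD44hi than in CD44lo and 3 higher in Treg than in naive, with 0 lower in either. At an unadjusted p under 0.05 in limma, 3 were higher and 0 lower in CD44hi, and 3 higher and 0 lower in Treg. The shares over all tested genes were 6.06% higher in CD44hi and 11.6% higher in Treg. Kcnk5, a two-pore-domain channel, was 2.00 higher in CD44hi than in CD44lo (log2, limma adjusted p = 0.00374) and at least 14.7-fold higher in Treg than in naive. Its limma adjusted p of 2.5e-05 in Treg against naive is for the signals as read, not for the bound. Kcnk6 was 3.87 higher in Treg and Kcna3, the Kv1.3 channel of effector memory T cells, 1.60 higher.

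Of the nephrin family and its partners, 8 of 15 were tested, and none was called in CD44hi against CD44lo by limma (0 higher and 1 lower at an unadjusted p under 0.05). Magi1, a scaffold protein of cell junctions, was at least 72.4-fold higher in Treg than in naive (limma adjusted p = 5.9e-05 for the signals as read, not for the bound). Cd2ap, an adaptor of CD2 and nephrin, was 1.17 lower in Treg (log2, limma adjusted p = 0.0103). Kirrel, Nphs1 and Myo16 were not well above background on any array. All 13 LanC-like and glutathione genes were tested, and Lancl1 and Lancl2 were called in neither comparison. Gsto1 and Gsta4, glutathione transferases, were higher in Treg than in naive by 2.35 and 4.39 (log2, limma adjusted p = 0.00127 and 0.00143), and none of the 13 was called between CD44hi and CD44lo by limma (2 higher and 0 lower at an unadjusted p under 0.05).

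**Figure D4:**
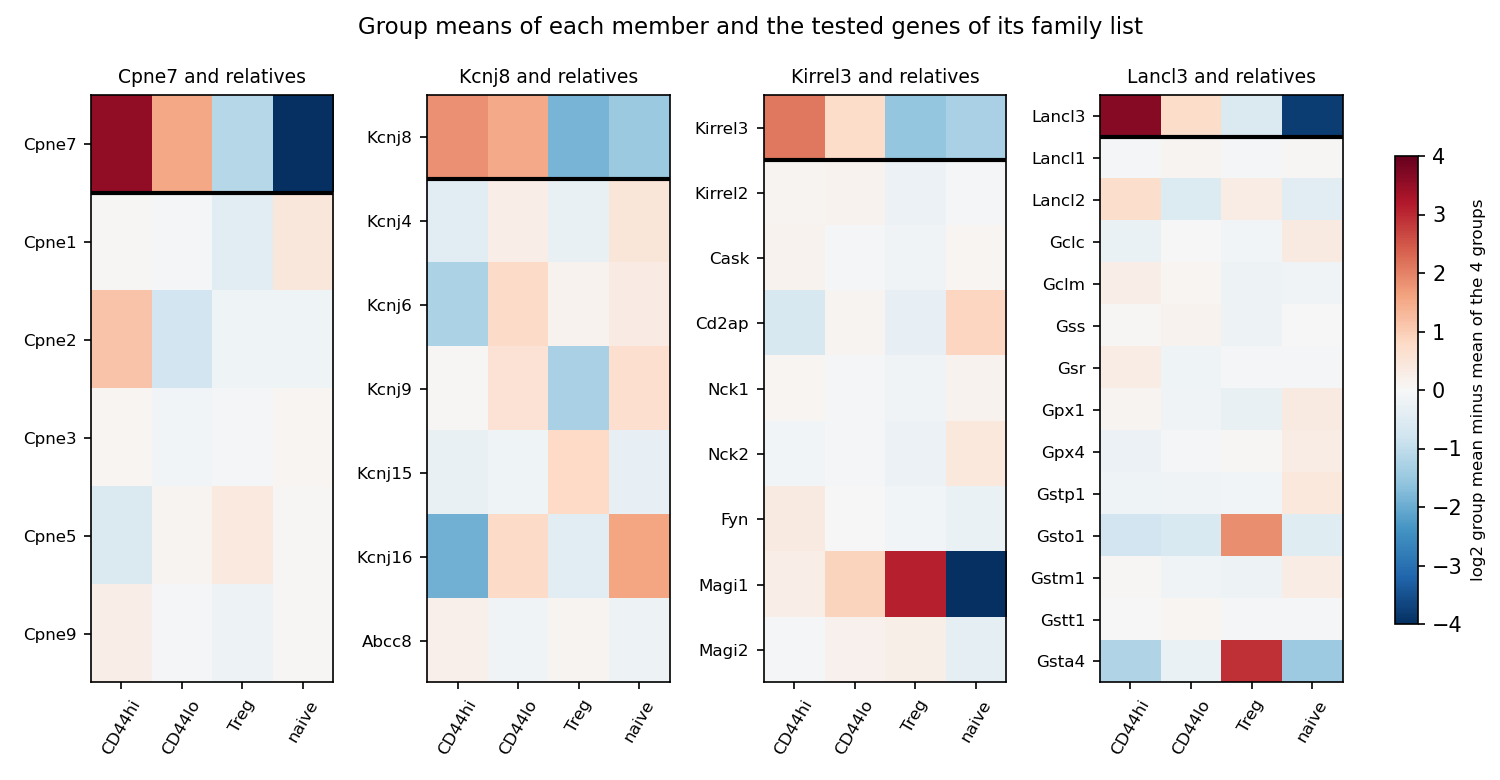
Group means (log2, minus the mean of the 4 groups, colour scale clipped at 4 in either direction) of Cpne7, Kcnj8, Kirrel3 and Lancl3 (top row of each panel) and of the tested genes of the copine, inward-rectifier, nephrin and LanC lists below them, in CD44hi, CD44lo, Treg and naive cells. Cpne2 is high in CD44hi alone, Kcnj16 is lowest in CD44hi, and Magi1, Gsto1 and Gsta4 are highest in Treg.

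Neighbours on the chromosome were looked up as well. The 3 protein-coding genes on each side of each member in the RefSeq gene order gave 24 genes, of which 20 were on the array and 15 tested. None was among the 23 called by limma (0.128% of all tested genes), and 2 had a gap above 0 (10.2% of all tested genes), counts near those shares. The gaps were 0.01 for Cmas beside Kcnj8 and 0.06 for H2al1m beside Lancl3. Xk, next to Lancl3, had signals of 30.0 and 34.9 in CD44hi, 15.4 and 19.7 in CD44lo, 21.6 and 22.7 in Treg, and 3.31 and 2.83 in naive. It was at least 1.16-fold higher in Treg than in naive, where it was not well above background, as was the case for Lancl3. The limma adjusted p of 6.3e-04 for Xk is for the difference of the signals as read (2.21, log2), not for this bound. Ldhb, on the other side of Kcnj8 from Abcc9, had its lowest signals in CD44hi, at 6384 and 7268, with 8676 and 10962 in CD44lo.

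Markers of other cells were measured beside the members. Of the pericyte, smooth muscle and stromal markers, Rgs5, Pdgfra and Pdpn were not well above background on any array, and Pdgfrb was so on 1, CD44lo array 2. None of the 7 tested stromal genes was called in CD44hi against CD44lo by limma (1 higher and 1 lower at an unadjusted p under 0.05). In Treg against naive, 2 were called higher and 1 lower. Over all tested genes the shares were 6.06% higher and 3.31% lower in CD44hi, and 11.6% higher and 10.3% lower in Treg. Their summed level, in units of the array's 75th percentile, was 52.4 to 55.1 in CD44hi, 49.1 to 50.4 in CD44lo, 42.4 to 45.8 in Treg and 43.5 to 53.1 in naive, most of it from Acta2.

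Among markers of NK cells and CD8 T cells, of which 10 were tested, 5 were called higher and 1 lower in CD44hi than in CD44lo. In Treg against naive, 5 were called higher and 4 lower. Over all tested genes, 6.06% were called higher and 3.31% lower in CD44hi, and 11.6% higher and 10.3% lower in Treg. The summed levels of these markers were 24.3 to 28.6 in CD44hi, 12.9 to 14.2 in CD44lo, 12.7 in both Treg arrays and 18.2 to 23.2 in naive. Klrb1c was 1 of these markers and 1 of the 23 genes. Ncr1, which defines NK cells, was well above background on CD44hi array 2 alone. B cell and plasma cell markers had summed levels of 6.65 to 12.1 in CD44hi, 2.68 to 2.89 in CD44lo, 8.63 to 12.9 in Treg and 1.59 to 1.65 in naive, with 2 of 9 tested genes called higher in CD44hi than in CD44lo and 5 higher in Treg than in naive. Both lists were thus higher in CD44hi than in CD44lo, as Lancl3 and Cpne7 were. So was the myeloid list, at summed levels of 2.02 to 2.30 in CD44hi and 1.04 to 1.25 in CD44lo. It had 1.44 to 1.85 in Treg and 0.83 to 1.22 in naive. The endothelial list was lower in CD44hi (1.44 to 1.55) than in CD44lo (1.98 to 2.10), and the neuronal and erythroid lists overlapped. The part of such cells in these results was not tested. Of the myeloid, endothelial, neuronal and erythroid lists, 12, 6, 7 and 6 genes were tested. By limma, 2, 0, 0 and 0 were called higher and 0, 0, 1 and 0 lower in CD44hi than in CD44lo. At an unadjusted p under 0.05, 4, 1, 1 and 1 were higher and 1, 0, 1 and 0 lower. Fewer cells with a transcript and less of it in each cell cannot be told apart in sorted pools.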

How the data were processed

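Per the file headers, the authors read the arrays with Agilent Feature Extraction 9.5.1.1. The deposited array files hold each spot's brightness as an intensity without scaling between arrays, and the remaining columns used are flags (unit other). The authors' deposited value table is on a log2 scale, and its normalization is not given in the sources used here. Its column medians were 6.86 to 6.88. The submitters' processing notes name limma.

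From each file of 45018 spots, 1639 control spots were left out. Outlier spots were left out only where the probe had another spot without the flag, so a flagged spot of a probe with 1 spot was kept. Spots of a probe were averaged. Values were log2 of the processed signal, less the 75th percentile of that array. A gene was represented by its brightest probe and tested where the probe passed the background flag in both samples of 1 group or more (17996 genes, 13897 with a current symbol). These were fitted with limma 3.58.1 in R 4.3.3 over all 8 arrays (4 residual and 2.62 prior degrees of freedom), 2-sided, with genes called below 0.05 after Benjamini-Hochberg adjustment. The script was tested on simulated data. For 2 arrays against 2, the smallest p of an exact permutation test is 0.333. The number of arrays limits the precision. Pairs with the same replicate number correlated at 0.06 to 0.33, not all over 0.1, so no block was used.

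The members and gene lists were chosen with earlier results of these data known. Named are the members, list genes called in either comparison or otherwise up to 4 of a list by size, the 3 genes nearest each member, the 10 nearest their mean, chromosome neighbours and the 10 largest gaps. Ntrk3, Itga7 and genes named as not measured were picked after their values were seen. Some genes that these rules name are not reported here. Alternatives were another background correction, normalization, value table, filter, probe summary, block and set of arrays.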

Additional observations from a re-analysis of the deposited data

How the results depend on the processing

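Lancl3 and Cpne7 in Treg against naive, and Lancl3 in CD44hi against CD44lo, stayed called in all alternatives run for them. In CD44hi against CD44lo, Cpne7 lost its call in a fit of the 2 groups alone (2.00, limma adjusted p = 0.0683). Kirrel3 gained one with the replicate block (1.37, adjusted p = 0.0228), with its probes averaged (2.19, adjusted p = 0.00531) and without CD44lo replicate 2 (1.87, adjusted p = 0.0199), over a range of 0.00531 to 0.245. Each of these rests on CD44lo signals that were partly or wholly not well above background. Kirrel3 also entered the test through CD44hi alone, so nothing is read from these calls. By contrast, Kcnj8 turned to -0.12 with its own probes averaged. In Treg against naive, Kirrel3 turned to 0.0031 under normexp and quantile, 0.24 under quantile normalization and 0.02 in the authors' deposited table, in each case between arrays not well above background. The replicate block changed no other call of a member. The cause of each change was not tested.

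Leaving out 1 array at a time gave differences between CD44hi and CD44lo of 1.49 to 2.50 for Cpne7, -0.19 to 0.76 for Kcnj8, 0.86 to 1.87 for Kirrel3 and 2.74 to 3.10 for Lancl3. Kcnj8 turned sign without CD44hi replicate 1 (-0.19) and without CD44lo replicate 2 (-0.07). Genes called numbered 513 (without CD44lo replicate 1) to 2765 (without either naive replicate), against 1686. In Treg against naive they numbered 1788 (without Treg replicate 2) to 9200 (without naive replicate 1), against 3941. The 23 genes called in all 4 contrasts became 3 to 53.

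Without a filter on dim probes, 842 genes were called in CD44hi against CD44lo and 2301 in Treg against naive, where the 2 groups alone gave 2517. The 23 became 36 with the replicate block, 15 with slide as a block, 8 without the filter, 14 with genes well above background on all 8 arrays and 14 with the mean of probes. On the probe or probe mean used, the gap as read stayed above 0 for every member in all alternatives run. The second Kirrel3 probe alone had a gap of -0.56, between CD44lo and naive signals that were not well above background. The brighter one has no measurable distance between CD44lo and naive. The gap was smallest under normexp and quantile, at 1.11 for Kcnj8, 0.29 for Kirrel3 and 0.61 for Lancl3. Signals under about 10 to 20 array units, which include Kirrel3 in Treg and naive and Lancl3 in naive, bound what can be measured.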
